A study of Mus musculus with 18 samples.

Results

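The *Reg* genes encode small secreted C-type lectins, proteins with a single carbohydrate-binding fold that the gut epithelium and the exocrine pancreas release into the lumen. The members described here are the rows of the deposited tables whose symbol is *Reg1*, *Reg3a*, *Reg3b*, *Reg3g* or *Reg4*, which are 5 of the 18838 genes listed in at least 1 of the 3 tables. All 5 members were listed in every table and all 5 passed the filter on low values, a mean normalized count of at least 10, at each time point. RNA was measured by bulk sequencing in 18 libraries from 3 WT mice and 3 *Mtgr1*-/- mice, which lack a transcriptional co-repressor and were compared with WT littermates. Each mouse gave duodenal crypts (day 0) and enteroids, the small organoids that grow from crypts in culture, harvested 24 h (day 1) and 72 h (day 3) after plating. The mice were 8 to 12 weeks old and of both sexes, and enteroids were kept in Matrigel under medium with EGF, Noggin, R-spondin and antibiotics. The allele is not restricted to a cell type, so non-epithelial cells in a crypt isolate share the genotype, and the enteroids hold neither the microbes nor most of the other cells of the gut wall. No added agent distinguished the groups.

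Reg3 lectins are part of the barrier that keeps bacteria away from the epithelium. *Reg3b* and *Reg3g* are made by enterocytes and Paneth cells, kill bacteria by binding their cell wall, and are switched on by microbial signals through Toll-like receptors and by interleukin-22 through STAT3. *Reg1* was first described as a regeneration protein of pancreatic islets and acinar cells and is also made by intestinal epithelium. *Reg4* is a marker of secretory cells of the gut, among them enteroendocrine and Paneth cells of the small intestine and the deep crypt secretory cells of the colon.

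*Reg1*, *Reg3a*, *Reg3b* and *Reg3g* lie together on chromosome 6 of the GRCm38 build. In the GENCODE annotation the stretch from 78370657 to 78468872, which is 98216 bases long, held 6 genes, all of them *Reg* genes, in the order *Reg3b*, *Reg3d*, *Reg3a*, *Reg2*, *Reg1* and *Reg3g*. *Reg3b* (ENSMUSG00000071356.7) lies on the plus strand at chr6:78370657-78373466 and *Reg3g* (ENSMUSG00000030017.2) on the minus strand at chr6:78466269-78468872, at the opposite ends of the cluster. *Reg3a* (ENSMUSG00000079516.2, chr6:78380709-78383827) and *Reg1* (ENSMUSG00000059654.7, chr6:78422711-78428667) lie between them on the plus strand. *Reg4* (ENSMUSG00000027876.4, chr3:98222156-98236748, plus strand) is on its own on chromosome 3. No window of 50 bases, the length of a read, was shared exactly between the main transcript of *Reg3a*, *Reg3b*, *Reg3g* or *Reg4* and any transcript of another gene. For *Reg1*, 32 of 855 windows were shared, and none of the genes that shared them was a *Reg* gene.

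The promoters of *Reg3b*, *Reg3g* and *Reg4* are shown because the comparison of the genotypes in enteroids turns on these 3 genes. All 5 members had a RefSeq start site in GRCm38.p6, and the sequences run from 250 bases before it to 50 bases after it, 5′ to 3′ on the strand of the gene. The RefSeq start sites of *Reg3b* (78370885) and *Reg1* (78425983) lie inside the genes as GENCODE places them. Most of the *Reg3b* window and all of the *Reg1* window therefore fall within those genes. Capitals mark matches, on either strand, to TATAAA (the TATA box), TTCNNNGAA (a spaced palindrome that STAT factors can bind), CACCTG or CAGCTG (E-boxes). The windows are chr6:78370635-78370934 (plus strand) for *Reg3b*, chr6:78468825-78469124 (minus strand) for *Reg3g* and chr3:98221906-98222205 (plus strand) for *Reg4*.
Reg3b: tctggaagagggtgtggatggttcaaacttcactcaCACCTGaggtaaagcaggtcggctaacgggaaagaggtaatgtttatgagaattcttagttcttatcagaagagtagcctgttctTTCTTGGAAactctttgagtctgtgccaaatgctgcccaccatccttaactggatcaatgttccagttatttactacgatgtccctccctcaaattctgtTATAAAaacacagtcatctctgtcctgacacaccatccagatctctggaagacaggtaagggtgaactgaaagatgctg
Reg3g: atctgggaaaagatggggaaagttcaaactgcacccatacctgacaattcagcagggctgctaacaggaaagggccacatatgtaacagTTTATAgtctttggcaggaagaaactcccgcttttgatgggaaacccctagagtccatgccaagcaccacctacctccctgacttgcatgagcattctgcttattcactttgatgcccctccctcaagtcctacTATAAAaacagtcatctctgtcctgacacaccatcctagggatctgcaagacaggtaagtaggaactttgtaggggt
Reg4: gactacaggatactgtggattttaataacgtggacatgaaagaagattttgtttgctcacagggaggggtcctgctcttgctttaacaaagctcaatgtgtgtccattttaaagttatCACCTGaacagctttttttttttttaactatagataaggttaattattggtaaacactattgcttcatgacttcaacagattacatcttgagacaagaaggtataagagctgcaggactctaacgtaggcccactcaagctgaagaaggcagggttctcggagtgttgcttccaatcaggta
*Reg3b* held TTCTTGGAA, the STAT-type palindrome, beginning 129 bases before the start site, and no other member held that motif, which was found in 8.3% of 32851 promoters of the same length. TATAAA was found beginning 29 bases before the start site of *Reg3b*, 27 bases before that of *Reg3g* and 30 bases before that of *Reg1*, and in 13.6% of all promoters. CACCTG was found in *Reg3b*, *Reg3a* and *Reg4* and in 20.2% of all promoters, and CAGCTG in none of the members and in 16.3% of all promoters. *Reg3b* and *Reg3g* shared a run of 29 bases that begins 20 bases before the start site in both, the longest of the 10 pairs of members, and the *Reg4* promoter shared no run over 10 bases with any of them. No motif overlapped another in these windows. The matches describe letters only, and CACCTG was added to the search after the sequences had been read.

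Reads on genes came to between 22035316 and 28621990 in the 16 libraries in which they could be recovered from the normalized values. The RNA of the targeted gene, listed as *Cbfa2t2*, was not lower in the libraries labelled *Mtgr1*-/- (limma, adjusted p = 0.917 for crypts, 0.0557 for day 1 enteroids and 0.686 for day 3 enteroids), so genotype is given as the label, and these libraries are called null-labelled. *Olfm4*, a marker of intestinal stem cells, separated them from WT at each time point, with log2 fold changes of -6.77, -11.59 and -9.14 in crypts, at day 1 and at day 3 (limma, adjusted p = 0.000621, 4.72e-06 and 1.91e-06). The epithelial markers were present in every library, with a summed level of 5993 to 11607 CPM (counts per 1000000 counts of a library) over 10 genes. Null-labelled mouse 2 and WT mouse 3 stood apart. Null-labelled mouse 2 had 2019 CPM of 14 Paneth cell markers in crypts, against 78.9 and 53.4 in the other 2 null-labelled libraries and 5445 to 7059 in WT. WT mouse 3 had 988 CPM of immune cell markers in crypts, against 147 and 257 in the other WT libraries and 52.3 to 132 in the null-labelled libraries. The log2 fold changes that moved most without these mice are given again without them.

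In WT crypts *Reg3b* and *Reg3g* were among the most abundant transcripts and carried most of the *Reg* RNA, and in enteroids most of that RNA was gone. The 5 members together made up 1.157% to 2.402% of all counts in WT crypts and 0.808% to 1.90% in null-labelled crypts. In enteroids they made up 0.0487% to 0.125% of counts in WT and 0.0426% to 0.182% in null-labelled libraries at day 1, and 0.0589% to 0.0654% against 0.0544% to 0.378% at day 3. Levels at different time points come from tables that were normalized separately, so they are set side by side as CPM of each library's total and were not tested.

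**Figure D1:**
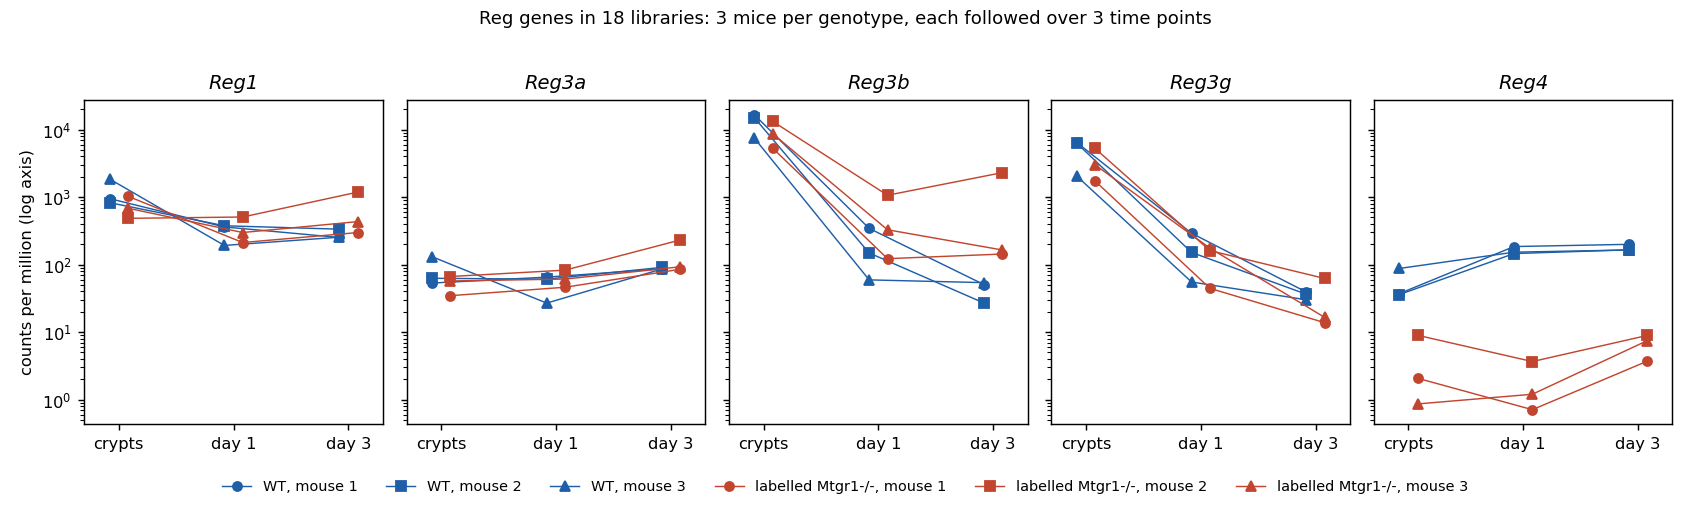
Level of each member in CPM (log axis) in crypts and in enteroids at day 1 and day 3, with 1 line per mouse, WT in blue and null-labelled in red. *Reg3b* and *Reg3g* fall steeply from crypts to enteroids in both genotypes, *Reg3b* stays higher in the 3 null-labelled libraries at day 3 (143 to 2300 CPM against 27.0 to 54.1), and *Reg4* lies lower in all 9 null-labelled libraries.

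Set per length, as CPM per kilobase of the main transcript, *Reg3b* was the highest member in every crypt library. Its level was 9519 to 21129 CPM per kilobase in WT crypts, and it ranked between 1 and 7 among all genes of a crypt library, with other genes set by their longest transcript. *Reg3g* followed at 2653 to 8341, *Reg1* at 915 to 2052, *Reg3a* at 64.6 to 159 and *Reg4* at 35.2 to 85.8 CPM per kilobase. Neighbours in this order did not overlap between WT crypt libraries, except *Reg3a* and *Reg4*. By day 3 the order in WT was different: *Reg1* was highest (279 to 370 CPM per kilobase), then *Reg4* (161 to 196), *Reg3a* (104 to 110), *Reg3b* (34.5 to 69.1) and *Reg3g* (39.1 to 50.8), of which the last pair overlapped. In null-labelled enteroids at day 3, *Reg1* (330 to 1308 CPM per kilobase) and *Reg3b* (183 to 2937) were the highest and overlapped, *Reg3a* (103 to 280) overlapped *Reg3b*, and *Reg3g* (17.9 to 80.8) and *Reg4* (3.63 to 8.75) lay below them. At day 1 the WT ranges of *Reg1*, *Reg3b* and *Reg3g* overlapped, with *Reg4* at 143 to 181 and *Reg3a* at 32.6 to 79.0 CPM per kilobase.

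Within each time point, null-labelled and WT libraries were compared by limma, using log2(normalized count + 1) of every gene whose mean reached 10 and Benjamini-Hochberg adjustment across these genes. On this scale a log2 fold change understates the change of low genes. P-values set the genotype difference against the spread between mice within the groups of 3, an estimate that also draws on the spread of all genes. For a single value, 3 against 3 cannot give an exact permutation p below 0.1. In crypts, 1 of the 5 members had an adjusted p below 0.05 (*Reg4*, lower), where 4.73% of 12980 genes passed, 3.15% lower and 1.58% higher. Of the other 4 members in crypts, 0 passed with limma, 0 had an unadjusted p below 0.05 and 0 passed with edgeR or DESeq2. At day 1, 1 of 5 passed (*Reg4*, lower), where 58.9% of 12587 genes passed, 28.9% lower and 30% higher, and again 0 of the other 4 passed with any of these tools or had an unadjusted p below 0.05. At day 3, 2 of 5 passed (*Reg4* lower, *Reg3b* higher), where 59% of 12782 genes passed, 29.1% lower and 29.9% higher. Among the rest at day 3, *Reg1* had an unadjusted p of 0.0404 (limma) and passed as higher with edgeR (adjusted p = 0.0443). *Reg3g* passed as lower with edgeR (adjusted p = 0.000544) and DESeq2 (adjusted p = 4.32e-10). Both count tools were run without null-labelled mouse 2 at day 3. The median log2 fold change of the 5 members was -0.61 in crypts, 0.42 at day 1 and 0.68 at day 3, beside 0.008, -0.008 and 0.003 over all genes tested. The libraries of the genotypes did not overlap for 1 of 5 members in crypts, where 25.5% of genes did not, for 1 of 5 at day 1 (68.1% of genes) and for 3 of 5 at day 3 (68.8% of genes).

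**Figure D2:**
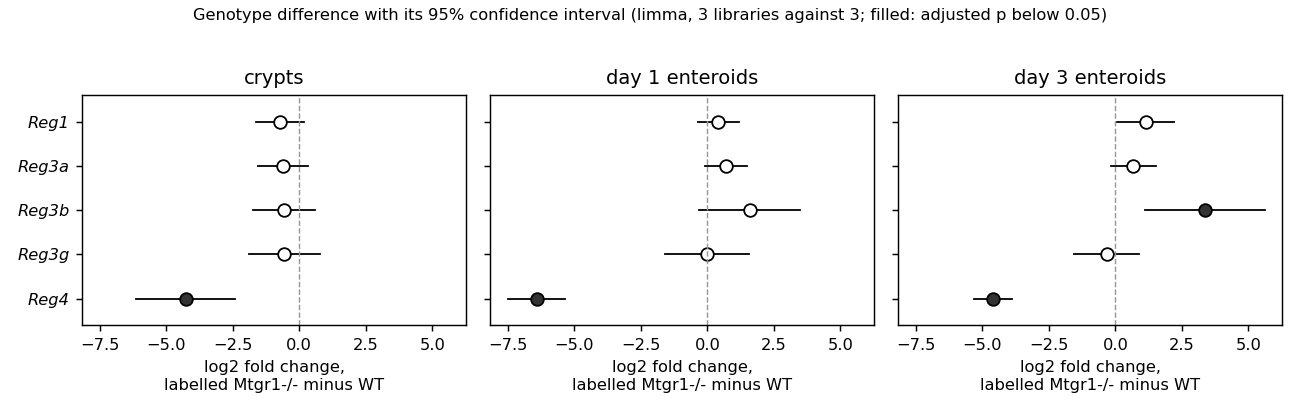
Log2 fold change of each member, null-labelled minus WT, with its 95% confidence interval at each time point (limma, 3 libraries against 3). Filled points have an adjusted p below 0.05: *Reg4* at the 3 time points and *Reg3b* at day 3, where its interval runs from 1.12 to 5.63.

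*Reg3b*, the bactericidal lectin that was the most abundant of the family in crypts, was higher in null-labelled enteroids at day 3. Normalized counts of *Reg3b* in crypts were 414582, 380895 and 192303 in WT mice 1, 2 and 3 and 127001, 313726 and 234237 in null-labelled mice 1, 2 and 3. The groups overlapped and the log2 fold change was -0.57 (SE 0.49, adjusted p = 0.597), or -0.92 without WT mouse 3 and -0.855 without null-labelled mouse 2. Without null-labelled mouse 1, the lowest of its group, it was smaller, at -0.20 (limma, adjusted p = 0.908). At day 1 the WT libraries had 8557, 3413 and 1404 counts and the null-labelled libraries 3815, 28891 and 10211. Null-labelled mice 2 and 3 lay above all WT libraries and mouse 1 lay within their range, with a log2 fold change of 1.59 (SE 0.82, adjusted p = 0.127). It was 0.945 without WT mouse 3 and 0.86 without null-labelled mouse 2. At day 3 the WT libraries had 1196, 648 and 1310 counts and the null-labelled libraries 3736, 67826 and 4473. All 3 null-labelled libraries lay above every WT library, with mouse 2 far above the other 2. The log2 fold change at day 3 was 3.37 (SE 0.98, adjusted p = 0.0179), a 10.4-fold difference. Without null-labelled mouse 2 it was 2.02 (SE 0.27, adjusted p = 0.000527), and without WT mouse 2, the lowest WT library, 3.06 (adjusted p = 0.0668).

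Across time, *Reg3b* fell less from crypts to day 3 in null-labelled mice than in WT. From crypts to day 1 its CPM fell 48.2-, 101- and 126-fold in the 3 WT mice and 43.1-, 12.4- and 26.4-fold in the null-labelled mice. From crypts to day 3 it fell 327-, 555- and 138-fold in WT and 36.8-, 5.73- and 52.7-fold in null-labelled mice, less in each null-labelled mouse than in each WT mouse. The change of the genotype difference from crypts to day 3, tested by limma in a single fit of the 18 libraries that treats mice as random effects, was 3.94 on the log2 scale (SE 1.35, adjusted p = 0.0372). Leaving out null-labelled mouse 2 at day 3 gave 2.78 (adjusted p = 0.0319), and leaving out its crypt library gave 4.25 (adjusted p = 0.0507). Of the 5 members 2 had an adjusted p below 0.05 for this change, *Reg3b* and *Reg1*, where 31.6% of 12145 genes did. From crypts to day 1, 0 of 5 members did (1 at an unadjusted p below 0.05, *Reg4*), where 41.4% of genes did, and from day 1 to day 3, 0 of 5 did (0 at an unadjusted p below 0.05), where 0.0329% of genes did. No other tool was run for these changes.

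*Reg3g*, which is usually induced together with *Reg3b* and acts on Gram-positive bacteria, did not pass at any time point with all libraries in the fit. Between mice it varied with *Reg3b*, with a Pearson correlation of 0.872 over the 18 libraries after the mean of each group was removed. In crypts its counts were 161164, 159989 and 52772 in WT and 41546, 124721 and 81055 in null-labelled libraries, which overlapped (log2 fold change -0.57, SE 0.57, adjusted p = 0.652, and -1.1 without WT mouse 3 or -0.93 without null-labelled mouse 2). Without null-labelled mouse 1 the crypt value was smaller, at -0.14 (limma, adjusted p = 0.943). At day 1 the counts were 7261, 3475 and 1306 against 1387, 4373 and 5455, with every null-labelled library inside the WT range and a log2 fold change of 0.002 (SE 0.68, adjusted p = 0.999, 95% confidence interval -1.58 to 1.58). Without WT mouse 3 it was -0.65 (adjusted p = 0.397) and without null-labelled mouse 2 -0.22 (adjusted p = 0.814). At day 3 the WT libraries had 925, 874 and 729.9 counts and the null-labelled libraries 359.5, 1837 and 448. Null-labelled mice 1 and 3 lay below all WT libraries and mouse 2 above all of them, so the log2 fold change of -0.33 (SE 0.53, adjusted p = 0.608) averages libraries that moved in opposite directions. Without null-labelled mouse 2 it was -1.06 (SE 0.14, adjusted p = 0.000435), and edgeR and DESeq2, which left out that library because its reads could not be recovered, gave -1.07 (adjusted p = 0.000544) and -1.06 (adjusted p = 4.32e-10). From crypts to day 3, CPM of *Reg3g* fell 164-, 173- and 67.9-fold in WT and 125-, 84.1- and 182-fold in null-labelled mice, which overlap.

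The ratio of *Reg3b* to *Reg3g* within a library does not depend on how libraries were scaled. In crypts it was 2.57, 2.38 and 3.64 in WT and 3.06, 2.52 and 2.89 in null-labelled libraries, which overlapped. At day 1 it was 1.18, 0.982 and 1.08 in WT and 2.75, 6.61 and 1.87 in null-labelled libraries, and at day 3 1.29, 0.742 and 1.79 against 10.4, 36.9 and 9.99. At both enteroid time points all 3 null-labelled libraries had a higher ratio than every WT library, mouse 2 included. Over the 10 pairs of members, 4 ratios did not overlap between the genotypes in crypts, all of them with *Reg4*, 5 at day 1 and 9 at day 3. Over all pairs of tested genes, 29.8% did not overlap in crypts, 66.3% at day 1 and 68.8% at day 3, so a ratio that does not overlap is common in enteroids. The pairs share genes and are not independent.

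**Figure D3:**
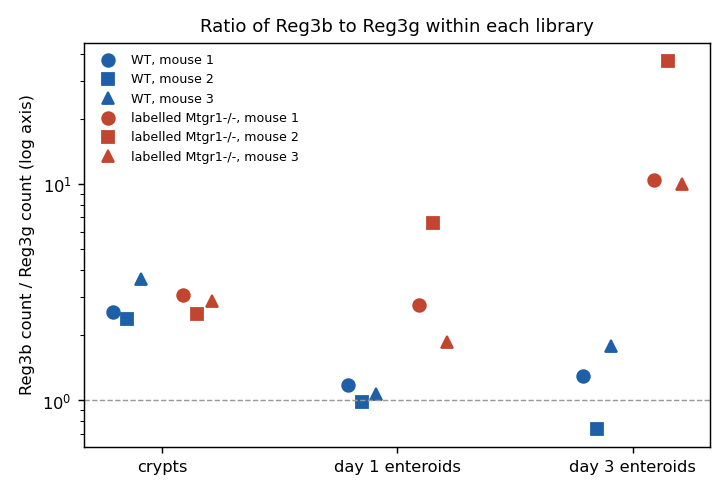
Ratio of the *Reg3b* count to the *Reg3g* count (log axis) in each library, WT in blue and null-labelled in red, with 1 symbol per mouse and a dashed line at a ratio of 1. The genotypes overlap in crypts (2.38 to 3.64 against 2.52 to 3.06) and separate at day 3 (0.742 to 1.79 against 9.99 to 36.9).

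*Reg3a*, the lowest of the 3 Reg3 members in crypts, gave no call at any time point. In crypts it had 1336, 1597 and 3382 counts in WT and 834, 1585 and 1547 in null-labelled libraries, which overlapped (log2 fold change -0.61, SE 0.39, adjusted p = 0.472, and -0.20 without WT mouse 3). At day 1 it had 1624, 1395 and 636 against 1440.2, 2247 and 1903, with null-labelled mice 2 and 3 above all WT libraries (log2 fold change 0.70, SE 0.34, adjusted p = 0.109, and 0.28 without WT mouse 3). At day 3 the WT libraries were close together, at 2042, 2182 and 2080.3, and the null-labelled libraries had 2219.8, 6814 and 2517. All 3 lay above WT, 2 of them by a small margin, and the log2 fold change of 0.68 (SE 0.37, adjusted p = 0.142) was 0.17 (SE 0.079, adjusted p = 0.0998) without mouse 2. From crypts to day 1 its CPM fell 4.87-fold in WT mouse 3, and the day 1 level was between 0.969 and 1.33 times the crypt level in the other 5 mice. Its change from crypts to day 3 was between 0.655- and 1.62-fold in WT mice and between 1.62- and 3.47-fold in null-labelled mice.

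*Reg1*, the regeneration protein of the family, had 23802, 21042 and 47855 counts in WT crypts and 24732, 11519 and 18499.5 in null-labelled crypts, with WT mouse 3 highest and null-labelled mouse 2 lowest. The log2 fold change was -0.73 (SE 0.39, adjusted p = 0.376) and -0.36 (adjusted p = 0.636) without WT mouse 3 or -0.43 (adjusted p = 0.606) without null-labelled mouse 2. At day 1 it had 9001, 8626 and 4546 counts in WT and 6613, 13751 and 9298 in null-labelled libraries, which overlapped (log2 fold change 0.42, SE 0.33, adjusted p = 0.295, and 0.10 without WT mouse 3 or 0.15 without null-labelled mouse 2). At day 3 it had 5962, 8043 and 6164 against 7768, 34868 and 11767, with null-labelled mice 2 and 3 above all WT libraries and mouse 1 below the highest of them. The log2 fold change at day 3 was 1.14 (SE 0.47, adjusted p = 0.0651), and 0.52 (SE 0.19, adjusted p = 0.0458) without null-labelled mouse 2. The genotype difference of *Reg1* rose by 1.87 on the log2 scale from crypts to day 3 (SE 0.67, adjusted p = 0.0455), but by 1.25 (adjusted p = 0.109) without the day 3 library of null-labelled mouse 2 and by 1.50 (adjusted p = 0.102) without the crypt library of WT mouse 3. CPM of *Reg1* fell 3.77-, 2.47- and 7.29-fold from crypts to day 3 in WT, fell 3.45- and 1.58-fold in null-labelled mice 1 and 3, and rose 2.44-fold in null-labelled mouse 2.

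Null-labelled mouse 2 carried the highest *Reg3b*, *Reg3a* and *Reg1* level of all enteroid libraries at day 3, and the highest *Reg3g*. In its crypts *Reg3b* and *Reg3g* were the highest of the 3 null-labelled libraries as well, whereas *Reg1* was the lowest. Its summed level of 13 upper-villus enterocyte genes at day 3 was 6784 CPM, against 4602 and 4453 in the other null-labelled libraries. At day 1, where its *Reg3b* was also the highest, that sum was the lowest of its group (5918 CPM against 10478 and 11013). Paneth cell markers summed to 321 CPM in its day 3 library, against 76.2 and 138.7 in the other null-labelled libraries. Immune cell markers summed to 5.39 CPM in the same library, beside 5.20 and 20.2 in the others. The part of any of these genes in the *Reg* levels was not tested.

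*Reg4*, the lectin of secretory cells, was lower in null-labelled libraries at every time point. In crypts it had 930.5, 914 and 2259.6 counts in WT and 49.9, 214 and 23.4 in null-labelled libraries, a 19.3-fold difference (log2 fold change -4.27, SE 0.78, adjusted p = 0.0296). At day 1 it had 4609, 3344 and 3611 against 22.2, 99.6 and 37.5, an 85.3-fold difference (log2 fold change -6.42, SE 0.47, adjusted p = 9.43e-05). At day 3 it had 4717, 3979 and 3987 against 96.7, 263 and 203, a 24.2-fold difference (log2 fold change -4.60, SE 0.32, adjusted p = 2.43e-05). Each of the 9 null-labelled libraries had fewer *Reg4* counts than any WT library of the same day, and null-labelled mouse 2 was the highest of its group each time. In bulk RNA, fewer cells of a type and less RNA per cell cannot be told apart. The call in crypts was lost in 5 of the 6 fits that leave out 1 library (adjusted p between 0.0688 and 0.101), with the log2 fold change between -5.14 (without null-labelled mouse 2, adjusted p = 0.00606) and -3.57 over the 6, and with edgeR (-4.07, adjusted p = 0.112), and kept with DESeq2 (-4.07, adjusted p = 0.0103). Where 1 library is left out of a group of 3, the spread is estimated from the 5 that remain.

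Whereas *Reg3b* and *Reg3g* fell on plating, *Reg4* rose in WT. Its CPM was 37.1, 35.9 and 87.6 in WT crypts, 185, 146 and 153 at day 1 and 199.6, 166 and 165 at day 3, a rise of 5.38-, 4.61- and 1.88-fold from crypts to day 3. In null-labelled mice it was 2.08, 8.996 and 0.865 CPM in crypts, 0.711, 3.67 and 1.20 at day 1 and 3.71, 8.93 and 7.48 at day 3. All 3 null-labelled mice rose from day 1 to day 3, by 5.22-, 2.44- and 6.21-fold, against 1.08-, 1.14- and 1.08-fold in WT. The change of the genotype difference from day 1 to day 3 was 1.82 on the log2 scale (SE 0.92, adjusted p = 0.703), and from crypts to day 1 it was -2.14 (SE 0.92, adjusted p = 0.0741).

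Markers of Paneth, goblet and enteroendocrine cells were low in the same libraries as *Reg4*, and those of tuft cells were not low in crypts. Of 14 Paneth cell markers, which include lysozyme and alpha-defensins, 1 passed the test as lower in crypts (*Wnt3*, log2 fold change -4.45), with 14 of 14 lower at an unadjusted p below 0.05, and 14 of 14 passed as lower at day 1 and at day 3. Their summed level was 5445 to 7059 CPM in WT crypts against 53.4 to 2019, 2847 to 3239 against 25.5 to 259.8 at day 1 and 4215 to 5374 against 76.2 to 321 at day 3. Goblet cell markers were lower in 10 of 10 tested at each time point, from 5985 to 6833 CPM in WT crypts to 205 to 290.1 in null-labelled crypts. Enteroendocrine cell markers were lower in 13 of 13 tested in crypts, 12 of 13 at day 1 and 14 of 14 at day 3, with sums of 322 to 536 CPM against 13.6 to 18.5 in crypts and 478 to 489 against 7.33 to 16.7 at day 3. Of 9 tuft cell markers 1 passed in crypts, as higher, with 8 of 9 higher at an unadjusted p below 0.05 (sums of 58.6 to 69.7 CPM in WT against 96.2 to 302), and 2 were higher and 5 lower of 8 at both enteroid time points. Of all genes tested, 3.15% passed as lower and 1.58% as higher in crypts. The shares were 28.9% and 30% at day 1 and 29.1% and 29.9% at day 3. For unadjusted p-values no share of all genes was counted. The part of any of these cell types in the *Reg4* difference was not tested.

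**Figure D4:**
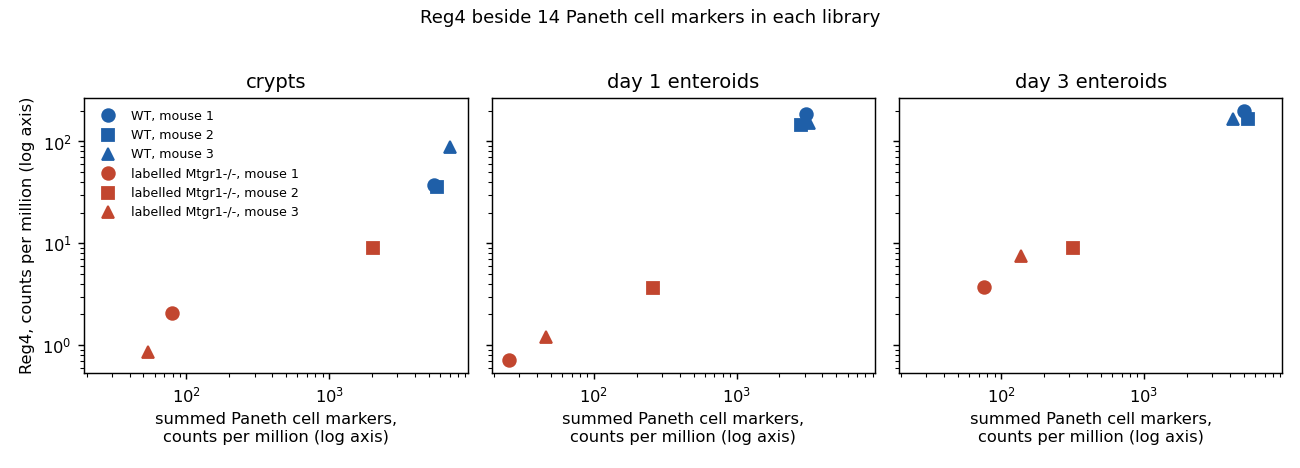
*Reg4* in CPM against the summed CPM of 14 Paneth cell markers, both on log axes, in each library at the 3 time points, WT in blue and null-labelled in red. Null-labelled mouse 2 (square) has the highest value of its group on both axes at each time point, 8.996 CPM of *Reg4* beside 2019 CPM of markers in crypts.

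Genes whose level followed *Reg4* most closely over the 18 libraries were *Wnt3*, a Wnt ligand made by Paneth cells (Pearson r = 0.981), *Tac1*, the substance P precursor of enteroendocrine cells (0.977), *A4gnt* (0.975), *Rab15* (0.971) and *Tpd52l1* (0.970). After the mean of each group was removed, these correlations were 0.854, 0.732, 0.645, 0.506 and 0.685. For *Reg3b* the nearest genes were *Glod5* (0.956), *Nat8f4* (0.948), *Pptc7* (0.947), *Ptk6* (0.939) and *Unc93a2* (0.939), and for *Reg3g* they were *Lyn* (0.957), *Gpr160* (0.945), *Slc36a1* (0.944), *Slc35f2* (0.939) and *B3galt5* (0.938), none of them shared with *Reg3b*. *Reg1* was nearest to *Aamdc* (0.895), *Mgat3* (0.884), *Dpyd* (0.883), *Atp8a1* (0.871) and *Eci3* (0.870), and *Reg3a* to *Nat8f1* (0.813), *Gm2a* (0.811), *Plekhb1* (0.810), *Ppm1j* (0.771) and *Sord* (0.770). Within the family *Reg3b* and *Reg3g* were the closest pair, with r = 0.904 over all libraries and 0.872 within groups, while *Reg3b* and *Reg4* had r = -0.35 over all libraries and 0.42 within groups. The points share mice, time points and library composition, and 12145 genes were compared, so these values are descriptions.

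Of receptor and signalling genes from pathways linked to *Reg3* induction, most of those tested were higher in null-labelled enteroids. The list held 27 genes: *Extl3*, a proposed receptor of Reg proteins, and receptors and signal carriers of the IL-22, IL-6, IL-17, IL-36 and Toll-like receptor pathways. In crypts 1 of 24 tested passed, as higher, with a median log2 fold change of 0.117. At day 1, 15 were higher and 3 lower of 23 tested (median 0.56), and at day 3, 15 were higher and 4 lower of 23 (median 0.55), beside 30% and 29.9% of all genes higher. *Tlr5*, the flagellin receptor, was the gene higher in crypts (log2 fold change 3.999, limma, adjusted p = 0.0024). Its mean counts in WT and null-labelled libraries were 4.13 and 82.8 in crypts, 3.79 and 84.5 at day 1 and 5.24 and 114 at day 3. *Tlr4*, the receptor of lipopolysaccharide, was higher by 3.11 on the log2 scale at day 1 and 4.27 at day 3. *Il22ra1*, the epithelial subunit of the IL-22 receptor, was higher by 1.38 (means of 1034 and 2710.2 counts, adjusted p = 0.000735) at day 1 and by 1.35 (adjusted p = 6.7e-05) at day 3. *Tlr2* and *Il6ra* were lower at both enteroid time points (log2 fold changes -1.66 and -1.65 at day 1, -0.84 and -1.25 at day 3). *Extl3* was lower at day 1 (-0.37) and *Nfkb1* at day 3 (-0.31). Whether any of these genes bear on the *Reg* levels was not tested.

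**Figure D5:**
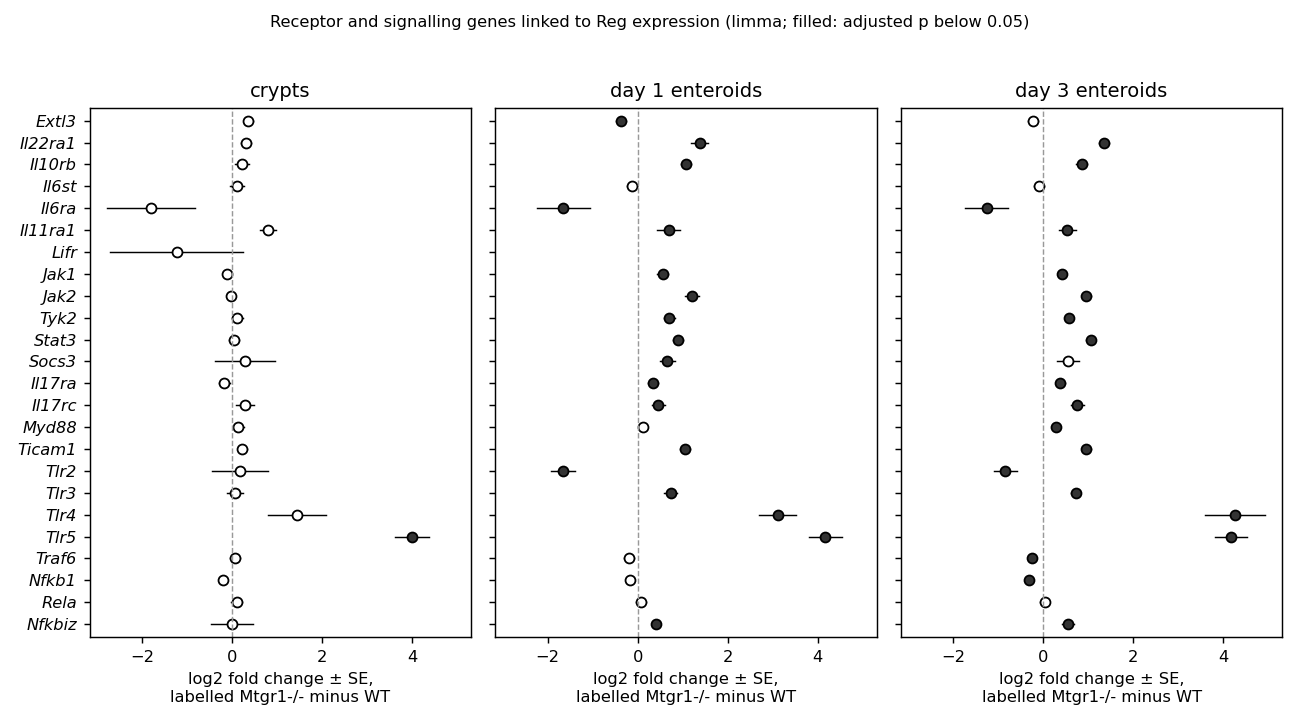
Log2 fold change, null-labelled minus WT, with its SE for the receptor and signalling genes tested at each time point (limma). Filled points have an adjusted p below 0.05: 1 gene in crypts, and 15 higher genes at day 1 and at day 3 against 3 and 4 lower genes.

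Other genes known to be induced by IL-22 or STAT3 passed in both directions in enteroids. In crypts 1 of 19 tested passed (*Il18*, lower, log2 fold change -0.97), at day 1 5 were higher and 4 lower of 13, and at day 3 6 were higher and 5 lower of 14, beside 30% higher and 28.9% lower of all genes at day 1 and 29.9% and 29.1% at day 3. *Stat3* itself had log2 fold changes of 0.90 and 1.06 at day 1 and day 3 (adjusted p = 0.000425 and 6.91e-05), and *Pim1*, a STAT3 target kinase, was higher by 0.71 at day 1. *Ifitm3*, an antiviral membrane protein, was lower at day 1 and day 3 (log2 fold changes -2.18 and -2.71), as was *Fut2*, the fucosyltransferase of the gut surface (-1.95 and -1.35). Transcripts of the inducing cytokines were near 0: *Il22* reached at most 1.98 normalized counts in a crypt library and *Il6* at most 4.41 in a day 1 library. Immune cell markers summed to 4.12 to 21.7 CPM in the day 1 and 4.82 to 20.2 CPM in the day 3 enteroids, and in crypts 0 of 15 tested passed with limma (5 at an unadjusted p below 0.05, all lower). Of the tested immune markers 1 of 8 was higher at day 1 and 2 of 4 at day 3, and among mesenchymal and endothelial markers 0 of 4 passed in crypts (1 at an unadjusted p below 0.05), 1 was higher and 1 lower of 4 at day 1, and 1 was lower of 4 at day 3. Whether these cells bear on the *Reg* levels was not tested.

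Secreted antimicrobial proteins outside the family passed in both directions in enteroids, more of them as lower, while their summed level was higher. The sum was 6335 to 7934 CPM in WT against 9702 to 11738 in null-labelled libraries at day 1. It was 4933 to 5884 against 6210 to 8350 CPM at day 3, and 9645 to 11912 against 7288 to 9968 in crypts. Of 20 tested in crypts 3 passed, all lower, of 18 at day 1 5 were higher and 11 lower, and of 19 at day 3 6 were higher and 11 lower. The higher counts are near the shares of all genes given above, 30% and 29.9%, and the lower counts stand beside 28.9% and 29.1%. *Lypd8*, an enterocyte protein that binds flagella, was higher by 1.64 on the log2 scale at day 1, as were the Sprr2a genes *Sprr2a3* (1.60) and *Sprr2a1* (1.53), near-identical copies whose reads may be split between them. The Paneth cell products *Lyz1*, lysozyme, and *Pla2g2a*, a secreted phospholipase, were lower, with log2 fold changes of -5.38 and -5.98 at day 1 and -5.36 and -6.17 at day 3. Enterocyte genes of the lower villus, the zone in which *Reg3b* and *Reg3g* are expressed, gave 1 of 9 passing in crypts, as lower, 7 higher and 1 lower at day 1 and 5 higher and 1 lower at day 3. Enterocyte genes of the upper villus were higher in 12 of 13 at day 1 and 13 of 13 at day 3, with sums of 1858 to 2137 CPM in WT against 5918 to 11013 at day 1. Of 10 epithelial markers 6 were higher and 1 lower at both enteroid time points. Acinar markers of the pancreas, a source of *Reg1* and *Reg2* RNA, summed to 65.9 to 104 CPM in WT crypts and 9.68 to 34.6 in null-labelled crypts, with 0 of 5 tested passing with limma (2 at an unadjusted p below 0.05, both lower), and 2 were higher and 1 lower of 5 at each enteroid time point. Their sums were 29.4 to 37.6 CPM in WT against 97.6 to 174 at day 1, and 60.5 to 76.1 against 56.9 to 78.9 at day 3. The part of the enterocyte and acinar genes in the *Reg* levels was not tested.

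The remaining genes of the cluster on chromosome 6 were barely detected. *Reg2* had means of 9.15 and 10.02 counts in WT and null-labelled crypts, 4.56 and 6.36 at day 1 and 5.78 and 8.503 at day 3, and did not reach the filter. *Reg3d* had means of 13.2 and 8.75 in crypts (log2 fold change -0.53, adjusted p = 0.602) and 8.82 and 19.8 at day 3 (0.90, adjusted p = 0.185). Both lie between *Reg3b* and *Reg3g*, whose counts in the same crypt libraries ran from 41546 to 414582.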

How the data were processed

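RNA was sequenced from crypts and enteroids of 3 WT and 3 *Mtgr1*-/- mice. The authors made stranded mRNA libraries, read single ends of 50 bases, trimmed with fastp 0.20.0, mapped them to GENCODE transcripts with Salmon 1.3.0, collapsed these to genes and normalized with DESeq2 1.26.0. The authors deposited a linear signal, the count of a gene divided by a factor of its library, in a separate table for each time point. The tables also hold the authors' own comparison of the genotypes (a mean signal, log2 fold changes with standard errors, a test statistic and p-values), which was not used here. The deposited log2, score and p-value columns were only checked for their unit. Columns, groups and mouse numbers were taken from the labels.

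For each table, limma 3.58.1 in R 4.3.3 (lmFit, eBayes with a trend, two-sided) was run on log2(normalized count + 1) of genes whose mean was 10 or more, with Benjamini-Hochberg adjustment over all genes and a threshold of 0.05. Changes between time points were fitted on the 18 libraries together, with mice as random effects (correlation between libraries of a mouse -0.00481). The step between low values gave whole reads, within 0.1 of a read, for 100% of values. A step near 1 cannot show this, as was the case for WT crypt library 2 and null-labelled day 3 library 2, so edgeR 4.0.16 and DESeq2 1.42.0 were run without them. Depth was 22035316 to 28621990 reads in the other 16, so a gene at the minimum rests on about 10 reads per library.

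The members and gene lists were chosen with earlier results of these data known. Some genes are on several lists, so counts of different lists are not independent. *Stat3* is on the signalling list and on that of IL-22 or STAT3 targets, which shares *Il18* and *Fut2* with the lower-villus list. *Lyz1* and *Pla2g2a* are on the antimicrobial and the Paneth cell lists. Genes named are the members, up to 3 largest rises and falls of a list at each time point among genes past the threshold, and the 5 genes nearest each member by Pearson correlation. *Il22*, *Il6*, *Reg2*, *Reg3d*, *Olfm4* and the targeted gene fall outside this rule and were named after their values were seen. Alternatives were each library left out, pseudocounts of 0.1 and 8, no filter, 2 other normalizations, no mouse effect, CPM scaling, the mouse number as a block, and the count tests. The steps were tested on simulated data. Same-numbered WT and null-labelled libraries deviated together at day 1 (correlation across genes 0.116, 0.231 and 0.216). The limit for pairing, a correlation over 0.1 in every pair, was met there, and the block changed no member's call. The day 1 values given in the text are from the fit without the block. With the block, *Reg4* had an adjusted p of 0.000564 and *Reg3b* of 0.152 at day 1 (limma). The limit for pairing was not met in crypts or at day 3. A number names the same mouse at each time point, so whether numbers pair WT with null-labelled mice is not settled. Promoters came from RefSeq.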

Additional observations from a re-analysis of the deposited data

Results flagged for a closer look

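The genotype difference of *Reg3b* changed between crypts and day 3 enteroids by a test of the change itself (limma over 18 libraries). It was -0.57 on the log2 scale in crypts and 3.37 at day 3, a change of 3.94 (SE 1.35, 95% confidence interval 1.08 to 6.80, adjusted p = 0.0372, adjusted p between 0.0172 and 0.0884 over 24 alternatives). The 3 null-labelled day 3 libraries lay above every WT library of that day, whereas 0 of 3 did in crypts.

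The genotype difference of *Reg1* also changed between crypts and day 3, from -0.73 to 1.14, by 1.87 (SE 0.67, 95% confidence interval 0.44 to 3.30, adjusted p = 0.0455, adjusted p between 0.0143 and 0.112 over 24 alternatives). Here 2 of the 3 null-labelled libraries lay above every WT library at day 3, and 2 of 3 lay below every WT library in crypts.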

How the results depend on the processing

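Of 570 values that 30 results took under the alternatives, 498 kept their direction and their side of the threshold, 31 lost a call, 16 gained a call and 25 changed sign, where the cause was not tested unless it is named. *Reg4* kept its direction and call under all 14 alternatives at day 1 and at day 3. In crypts *Reg4* was between -5.14 and -3.57 with a library left out (adjusted p between 0.00606 and 0.101, called only without null-labelled library 2) and lost the call with edgeR (-4.07, adjusted p = 0.112). *Reg3b* at day 3 was between 2.02 and 4.11 with a library left out and lost the call only without WT library 2 (3.06, adjusted p = 0.0668), and at day 1 it was between 0.86 and 2.32 and gained a call without null-labelled library 1 (2.32, adjusted p = 0.040). *Reg1* at day 3 was between 0.52 and 1.60, with a call without null-labelled library 1 (1.60, adjusted p = 0.00895) or 2 (0.52, adjusted p = 0.0458) and with edgeR, which lacks library 2 (0.53, adjusted p = 0.0443). *Reg3a* at day 3 was between 0.17 and 0.98, with a call without null-labelled library 1 (0.98, adjusted p = 0.0393). *Reg3g* at day 3 was between -1.06 and 0.11, and passed without null-labelled library 2, also left out of edgeR (-1.07) and DESeq2 (-1.06), and turned sign without null-labelled library 1 (0.11, adjusted p = 0.851). *Reg3g* at day 1, 0.002, was between -0.65 and 0.61 with a library left out, -0.029 with median-ratio rescaling, -0.21 with quantile normalization, -0.13 with edgeR and -0.10 with DESeq2.

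The changes between time points rest on few libraries. For *Reg1* from crypts to day 3 the change was between 1.25 and 2.33 with a library left out, and the call was lost in 11 of these 18 fits, with no filter (1.87, adjusted p = 0.0513, more genes tested) and on the CPM scale (1.64, adjusted p = 0.0588). For *Reg3b* from crypts to day 3 it was between 2.78 and 4.68 and the call was lost in 9 of 18. From crypts to day 1, *Reg3a* was between 0.89 and 1.57 and *Reg3b* between 1.43 and 2.90, both called only without the day 3 library of null-labelled mouse 2. That library does not enter these values, which stayed at 1.304 and 2.16, but it enters the spread shared by all groups. Without it the SE fell from 0.619 to 0.486 for *Reg3a* and from 1.345 to 0.814 for *Reg3b*. From crypts to day 1 *Reg4* was between -2.84 and -1.27 and -2.26 on the CPM scale (adjusted p = 0.0187), called in 4 of 18. Uncalled changes that crossed 0 were *Reg3a* from day 1 to day 3 (-0.47 to 0.39, and 0.11 on the CPM scale), *Reg3g* from crypts to day 1 (-0.097 to 1.19), to day 3 (-0.39 to 0.76) and from day 1 to day 3 (-0.96 to 0.33), and *Reg4* from crypts to day 3 (-1.03 to 0.55).

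With the mouse number as a replicate block, *Reg4* in crypts lost its call (-4.27, adjusted p = 0.0564), *Reg1* at day 3 gained one (1.14, adjusted p = 0.0234) and the change of *Reg3b* from crypts to day 3 lost its call (3.94, adjusted p = 0.063). The block changed no other call. The limit of 0.1 for the correlation of same-numbered libraries was passed by 2 of 3 pairs in crypts (0.076, 0.274 and 0.346) and by 0 of 3 at day 3 (-0.007, -0.002 and -0.016). A number names the same mouse at each time point, so whether it pairs mice of the 2 genotypes is not settled. Over all genes, the crypt count of 614 fell to between 175 and 605 with a library left out, to 209 with edgeR and rose to 1200 with DESeq2, both without WT library 2. Depth limits *Reg2* and *Reg3d*, whose means were 4.56 to 19.8 counts, and null-labelled *Reg4*, which rests on 19 to 225 reads in the libraries with recovered reads.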

Other observations

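Some pairs of members were more strongly correlated within groups than over all libraries. After the mean of each group was removed, *Reg1* and *Reg3a* had a correlation of 0.717 over the 18 libraries, against 0.368 before, and *Reg3a* and *Reg3b* 0.685 against 0.029. *Reg4*, which lies on another chromosome, had correlations of 0.294 to 0.580 with the members of the cluster within groups, against -0.35 to 0.089 before. The points share mice, library depth and composition, and no p is given.

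At day 3 the spread between mice of a group was wider for *Reg3b* than for *Reg3a* in the same libraries. There the highest null-labelled library had 18.2 times the *Reg3b* count of the lowest, against 2.02 times in WT, and for *Reg3a* these factors were 3.07 and 1.07. In crypts they were 2.47 and 2.16 for *Reg3b* and 1.90 and 2.53 for *Reg3a*.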
